A study of Mus musculus with 180 samples.

Results

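Ribosomes that carry phosphorylated ribosomal protein S6 (pS6) were captured from the cytosolic fraction of mouse hippocampus, and the RNA that came with them was compared with the RNA of the same fraction without capture (Input). The comparison used 30 pS6 and 30 Input libraries, 60 of the 180 libraries of the series, chosen by library type from the labels and paired by the mouse number. The 30 mice were male, with 8 in the NoCFC Sleep group, 7 in NoCFC SD, 8 in CFC Sleep and 7 in CFC SD. CFC stands for contextual fear conditioning and SD for sleep deprivation, NoCFC mice stayed in the home cage, and neither the ages nor the length of the deprivation are in the labels. All groups shared 1 genotype, a cross of Tg(Camk2a-cre)T29-1Stl/J, on the B6.Cg background, with B6N.129-Rpl22tm1.1Psam/J, so the HA tag on ribosomal protein Rpl22 was present in Camk2a-cre cells of every mouse, although the pS6 antibody does not use it. The labels give brain as the tissue and neuron as the cell type. Input was unselected tissue RNA, and the pS6 antibody (against residues 244-247 of S6) has no cell-type restriction of its own.

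S6 is a protein of the small ribosomal subunit. Its tail is phosphorylated by S6 kinases downstream of mTORC1 and by the p90 ribosomal S6 kinases downstream of ERK, and in neurons that phosphorylation rises after firing, which is why pS6 capture is used to draw out RNA of recently active cells. RNA that comes down with a ribosome is usually being translated, but S6 is also phosphorylated in cells that are not neurons.

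The pS6 libraries held 17.5 to 25.4 M (mega-counts) each and the Input libraries 13.4 to 25.4 M. Odd-numbered and even-numbered mice separated on the first principal component of the Input libraries, which held 30.4% of their variance, and their Input libraries averaged 16 and 20.3 M. The Input library of mouse 6 and the pS6 library of mouse 19 stood apart from the rest. Mice 1 to 11 were all NoCFC and mice 12 to 22 all CFC, and mice 23 to 30 held 2 of each group.

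Most genes differed between the pS6 capture and Input, the greater part of them by less than a fold of 2. Of 17112 genes tested, 1943 were higher by a fold of 2 or more (11.4%) and 1600 were lower (9.35%), at an adjusted p under 0.05 in edgeR's quasi-likelihood test. Without the fold, 14934 genes passed, at a median standard error of 0.04 on the log2 scale over 30 pairs of libraries. The median log2 fold change of all genes was -0.05. Changes of 4-fold or more were found in 211 genes that rose and 194 that fell. The direction was the same in all 30 mice for 1375 of the higher and 1045 of the lower genes. In 1010 higher and 666 lower genes every pS6 library lay beyond every Input library, a separation met by 12.1% and 10.3% of all genes tested in the 2 directions. Whether a gene was lower because fewer cells of a type gave pS6 ribosomes or because each gave less RNA cannot be told apart in these bulk libraries. Library totals in place of TMM scaling turned the share of higher genes among the calls from 54.8% to 46.9%, and shifted the median of all genes to -0.12.

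The genes with the largest rise, among those with an average log2 CPM of at least 3 and with predicted genes and clone names passed over, were a mixture of neuronal and other genes. Nav1, a microtubule-binding neuron navigator, stood between 456 and 807 CPM (read counts scaled to library size) in the pS6 libraries, with a median of 666. In Input it ran from 51.2 to 84.9 CPM with a median of 72.7. The 2 ranges did not meet, and the log2 fold change was 3.17 ± 0.05 (SE, 30 mice, adjusted p = 6.18e-29). Its relatives went the other way, with Nav2 at -1.15. Mir22hg, the noncoding host gene of a microRNA, was at 2.60 ± 0.03, and Alkal2, a ligand of the receptor tyrosine kinases Alk and Ltk, at 2.60 ± 0.06. Next came Krt10, a keratin, at 2.59, Plvap, a protein of the diaphragms of leaky vessels, at 2.51, and the zinc-finger transcription factor Casz1 at 2.34. Endothelial markers as a list did not move with Plvap, since 14 of 19 were lower. Pcp4l1 rose to a median of 343 CPM (262 to 657) from 71.3 (55.8 to 98.6), and the log2 fold change was 2.31. Brd3os (2.28), Plpp5, a lipid phosphatase (2.10), and Tbata (2.10) completed the 12 named risers with Fosb and Gadd45b. Exons of Nav1, Mir22hg, Alkal2, Krt10 and Casz1 overlap another gene, and the strand used in counting is not given, so their counts are uncertain.

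Transcription factors of the activity-regulated class rose as a group, but not uniformly. These are the genes that neurons switch on within minutes of strong firing. Of 22 tested, 11 were higher and none was lower (11.4% and 9.35% of all genes), and the list's median was 0.97, against -0.05 for all genes. The mean over the list was above 0 in 30 of 30 mice, from 0.53 to 1.28. With library totals in place of TMM, and without mice 6 and 19, 10 were higher.

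The Fos branch of the AP-1 family held the member with the highest value. Fosb, on chromosome 7 (19302696 to 19310051, GRCm38), was at 30.0 CPM in the median pS6 library, between 7.46 and 81.6. In Input its median was 4.48 CPM, between 0.95 and 6.81. No Input library reached the lowest pS6 library, and the log2 fold change was 2.76 ± 0.05 (adjusted p = 7e-35). Fos stood at 9.27 to 61.6 CPM (median 23.1) with pS6 and at 5.77 to 20.1 (median 10.3) in Input. The ranges of Fos overlapped, yet each of 30 mice was higher with pS6, and the log2 fold change was 1.41 ± 0.04 (adjusted p = 1.29e-28). In the NoCFC Sleep mice alone Fos was at 0.97, under the fold of 2. Fosl2, another Fos relative, was at 1.28, the partners Jun and Junb at 1.29 and 1.28, while Jund was at 0.50 and Fosl1 at 0.02, neither past the fold. Exons of Jun and Junb overlap other genes.

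Members of the Egr and Nr4a families split. Egr2 rose, with a median of 6.21 CPM (1.3 to 19.6) against 1.91 in Input (1.04 to 3.28), and a log2 fold change of 1.87 ± 0.09 (adjusted p = 5.05e-21). Egr1, often used as the marker of the class, was nearly level, with a median of 251 CPM (165 to 378) against 215 (170 to 262) and a log2 fold change of 0.32 ± 0.03. Egr3 was at 0.43 and Egr4 at 0.92, and Egr4 passed the fold in both SD groups alone, at 1.14 in NoCFC and 1.19 in CFC. Among the orphan nuclear receptors Nr4a3 rose by 1.30 on the log2 scale, whereas Nr4a1 was at 0.72 and Nr4a2 at 0.50. Npas4, a neuron-specific factor induced by calcium entry, was higher at 1.47 ± 0.10, although its ranges overlapped (2.28 to 15.1 CPM against 0.754 to 8.43) and it was at 0.70 in NoCFC Sleep mice alone. Atf3, a stress-inducible factor, had ranges that did not meet, 2.31 to 7.72 CPM against 0.286 to 1.3, and was at 2.26 ± 0.10. Crem, a cyclic AMP-responsive factor, was at 1.14. Maff was called at 1.01 ± 0.14 but fell short of the fold under 8 of the alternatives, for example 0.94 with library totals. Klf4, at -0.76 ± 0.18, and Btg2, at -0.18, were the members below 0.

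**Figure D1:**
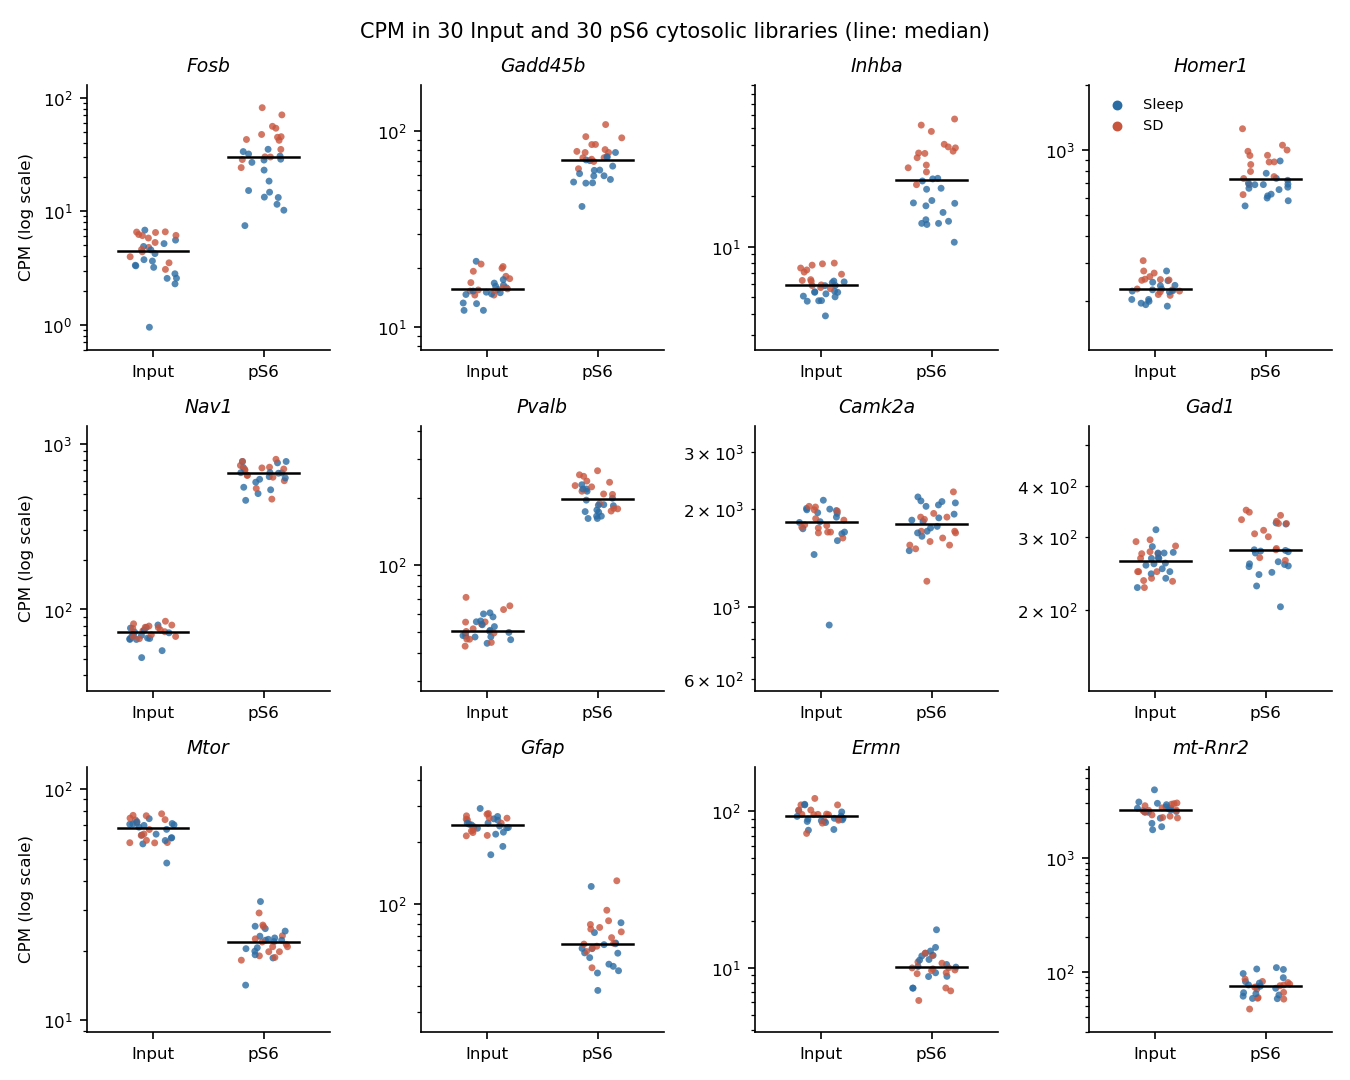
CPM of 12 genes in each of the 30 Input and 30 pS6 libraries of the cytosolic fraction, on a log axis, with Sleep mice in blue, SD mice in red and a line at the median. Fosb, Gadd45b, Nav1, Pvalb, Mtor, Ermn and mt-Rnr2 have ranges that do not meet between library types, whereas those of Camk2a and Gad1 lie over each other.

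Since 11 of these factors were higher, the stretches before their transcription starts were read for the motifs that activity-responsive regulators bind. RefSeq promoters on GRCm38.p6, from 250 bases before to 50 after a start, were searched on both strands for the CRE (TGACGTCA), the AP-1 site (TGACTCA) and the CArG box. The CRE was present for 2 of 17 transcription factors with a promoter in the table (11.8%) and for 5 of 24 activity-regulated effectors (20.8%), against 3.4% of 12215 tested genes. Among the 1199 higher genes it was present in 2.67%. An AP-1 site was found in 0 of 17 and 0 of 24, against 4.48% of tested genes, and a CArG box for 1 gene of each list, against 1.63%. Of the 7 genes with a CRE, Maff was called higher, whereas Btg2, Pcsk1, Plk2, Scg2, Dusp1 and Errfi1 were not. As examples 3 stretches are shown, each 250 bases up to the start and on the plus strand, with the motif in capitals: the called genes Egr2 and Maff, and Pcsk1, which carries the CRE without being called (0.62). A match is a description of the letters, not of a bound factor.
Egr2, chr10:67537619-67537868, CArG box 72 to 63 bases before the start: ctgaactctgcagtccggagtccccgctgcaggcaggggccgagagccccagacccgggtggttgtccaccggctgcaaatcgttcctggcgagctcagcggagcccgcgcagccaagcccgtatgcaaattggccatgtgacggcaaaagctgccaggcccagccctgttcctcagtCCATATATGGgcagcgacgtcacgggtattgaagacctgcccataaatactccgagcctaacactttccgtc
Maff, chr15:79347270-79347519, CRE 29 to 22 bases before the start: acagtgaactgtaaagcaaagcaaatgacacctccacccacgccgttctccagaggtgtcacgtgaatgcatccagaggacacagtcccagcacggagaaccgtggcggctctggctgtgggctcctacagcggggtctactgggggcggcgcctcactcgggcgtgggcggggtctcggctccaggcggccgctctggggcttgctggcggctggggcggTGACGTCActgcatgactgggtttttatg
Pcsk1, chr13:75089607-75089856, CRE 78 to 71 bases before the start: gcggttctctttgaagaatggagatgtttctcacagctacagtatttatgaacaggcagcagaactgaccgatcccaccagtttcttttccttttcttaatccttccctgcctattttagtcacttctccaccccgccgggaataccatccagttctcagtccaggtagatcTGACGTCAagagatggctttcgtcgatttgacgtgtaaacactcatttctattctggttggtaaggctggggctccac

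Effectors, the secreted, synaptic and signalling proteins made downstream of those factors, rose in part. Of 32 tested, 9 were higher and none was lower (11.4% and 9.35% of all genes), with a median of 0.60. With library totals 6 were higher, as were 1684 of all 17112 genes. Gadd45b, a growth-arrest and DNA-damage-inducible gene on chromosome 10 (80930073 to 80932204), went from 15.7 CPM in the median Input library (12.2 to 21.7) to 71.6 with pS6 (41.3 to 108). That separation was complete, and its log2 fold change was 2.13 ± 0.03 (adjusted p = 3.07e-39). Inhba, which encodes an activin subunit, had a median of 24.7 CPM (10.6 to 56.7) against 5.89 (3.89 to 7.98) and was at 2.08 ± 0.04, again with no overlap. Homer1, whose short form uncouples postsynaptic scaffolds, ran from 551 to 1250 CPM against 190 to 308 and was at 1.72 ± 0.02. The neurotrophin gene Bdnf stood at 83.2 to 195 CPM against 41.0 to 55.6, Nptx2, a secreted pentraxin that clusters AMPA receptors, was at 1.34, and the MAP kinase phosphatase Dusp6 and Gadd45g were at 1.06 and 1.07 (0.98 and 0.99 with library totals). Arc, the dendritic cytoskeletal gene usually grouped with these, did not pass the fold: its median was 208 CPM (84.2 was the lowest Input value, 350 the highest pS6 value) against 118 in Input, and its log2 fold change was 0.75. Tiparp was at -0.52.

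The enrichment of these genes differed with the sleep condition. The interaction of capture with SD passed at an adjusted p under 0.05 in edgeR for 246 genes upward (1.44%) and 142 downward (0.83%), or 2.27% of 17112. Of the 22 transcription factors 14 had a larger enrichment in SD mice and none a smaller one. In the mean over that list the 14 SD mice stood at 1.13 ± 0.12 (SD) and the 16 Sleep mice at 0.72 ± 0.12, and for the effectors the means were 0.83 ± 0.12 and 0.49 ± 0.08. Fos averaged 46.4 ± 9.55 CPM with pS6 in CFC SD mice (n = 7) and 17.7 ± 3.5 in CFC Sleep mice (n = 8), while its Input averaged 12.8 ± 2.35 and 8.31 ± 1.28. The SD change of its enrichment was 0.78 ± 0.09 (adjusted p = 1.14e-07). By the same rule on level and names, Alkal2 and the complexin Cplx3 changed most, both by 0.84, followed by the prohormone convertase Pcsk1 at 0.80. Npas4 and Crh, below that level, changed by 1.16 and 1.00. Cplx3 itself lay below Input, at -1.10, and its change did not pass without the mouse block (0.81). In the opposite direction the activin subunit Inhbb was at -0.53 and the thyroid hormone deiodinase Dio3 at -0.47. These counts rest on the pairing and on the number of mice: without the mouse block 87 and 28 genes passed, and in mice 1 to 11, 12 to 22 and 23 to 30 alone the counts were 26 and 6, 32 and 9, and 108 and 17.

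**Figure D2:**
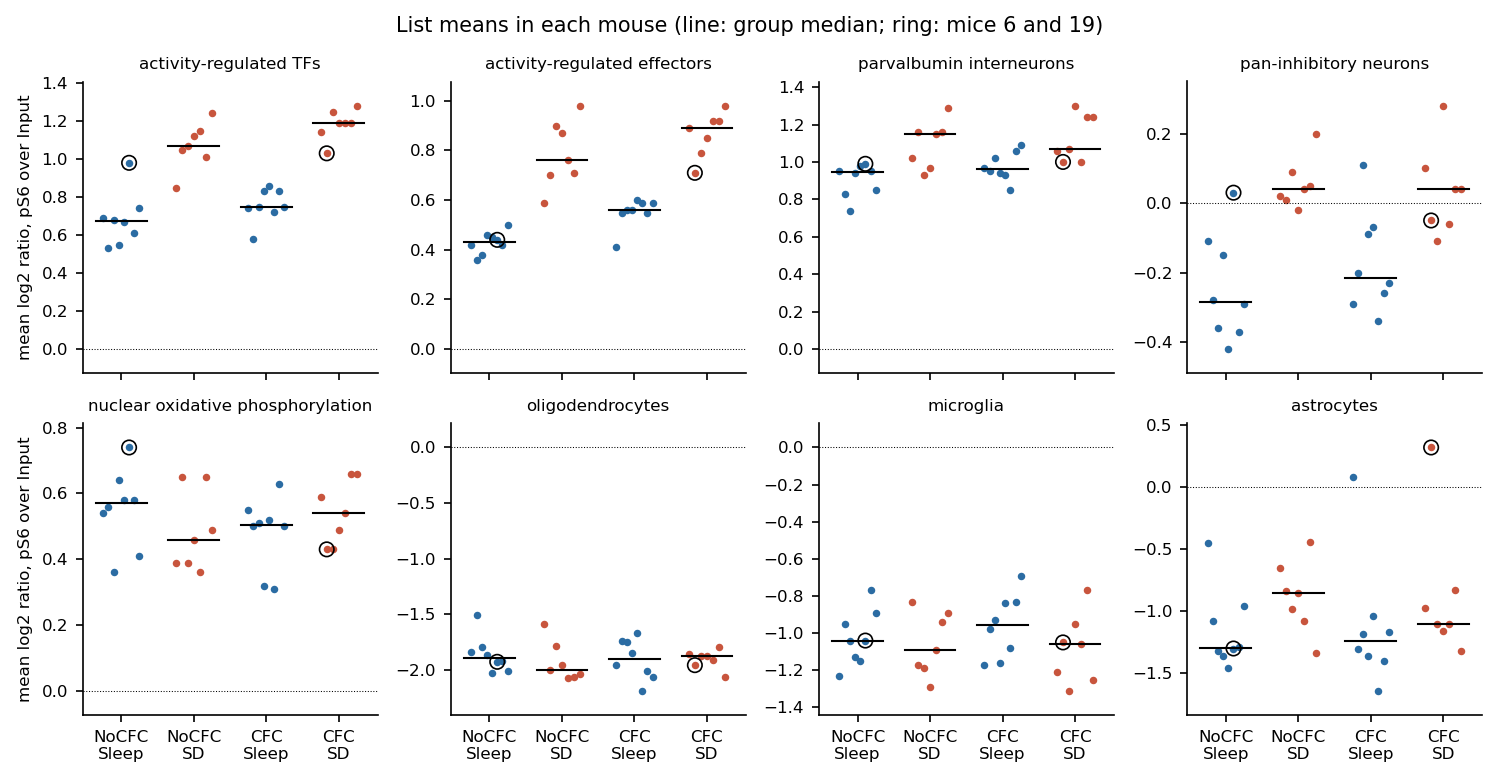
Mean log2 ratio of pS6 to Input over the tested members of 8 gene lists, 1 point per mouse, in the 4 training by sleep groups, with mice 6 and 19 ringed. The activity-regulated transcription factors lie at 0.53 or above in every mouse, the oligodendrocyte genes at -1.51 or below, and the astrocyte genes spread from -1.64 to 0.32.

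For training, 3 genes had a changed enrichment. Egr3 was up by 0.25 (adjusted p = 0.0496 in edgeR), Malat1, a nuclear noncoding RNA, down by 0.76 and Eif4ebp2, a translation repressor that mTORC1 inactivates, down by 0.29 (1 gene or 0.00584% upward, 2 or 0.0117% downward, 0.0175% in all). Training coincides with the run of mouse numbers in mice 1 to 22. With the run by capture term in the model no gene passed, and Malat1 was at -0.16.

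Genes of the pathway that phosphorylates S6 gave few calls. Of 44 tested genes listed for the route from mTORC1 to S6 kinase, 2 were higher and 5 lower. That share of lower genes was near that of all genes (9.35%), and the median was -0.24. Without the fold 18 passed upward and 24 downward. Mtor, the kinase itself, fell from a median of 67.5 CPM (47.8 to 78.0) to 21.8 (14.2 to 32.6), with no overlap and a log2 fold change of -1.60 ± 0.04 (adjusted p = 1.44e-27). Tsc2, the GTPase-activating subunit of the tuberous sclerosis complex, and Deptor, which binds mTOR, inhibit the pathway and were lower, at -1.27 and -1.16. Rps6ka1, a p90 S6 kinase, was at -1.25. The other lower gene of the list, Pdk1 at -1.08, encodes a pyruvate dehydrogenase kinase, which is not part of this pathway. Rheb and Rhebl1, small GTPases that switch mTORC1 on, were at 1.01 and 1.09. The call of Rheb ended with library totals (0.94), in mice 12 to 22 (0.98), in the CFC Sleep group (0.98) and in even-numbered mice (0.98). The S6 kinase gene Rps6kb1 was at -0.16. Rps6, the gene of the captured protein, was at a median of 82.4 CPM with pS6 (68.1 to 105) and 69.5 in Input (59.1 to 84.2). It was higher in 30 of 30 mice by a small amount, 0.27 ± 0.02, and Rpl22 was at 0.18.

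Ribosomal protein genes lay a little above Input. Their medians were 0.25 over 46 genes of the large subunit, of which 2 were higher, and 0.23 over 33 of the small subunit, of which 1 was higher. The 3 that passed were Rpl41 at 1.27 ± 0.05, Rpl39 at 1.14 and Rps10 at 1.05, and Rps10 dropped to 0.98 with library totals. Rpl41 and Rpl39 have very short coding sequences, of 75 and 153 bases. Rps2 lay at -0.50. Of 38 translation factors 3 were higher and none lower, against 11.4% and 9.35% of all genes, so the list was not rich in higher genes. All 3 act in start-codon selection. Eif1a rose from 89.4 CPM (80.2 to 107) to 320 (278 to 354), a log2 fold change of 1.82 ± 0.02 (adjusted p = 6.62e-45). Eif1b was at 1.24 and Eif1 at 1.17, all without overlap between library types. The initiation factor subunit Eif2s3x was at -0.95 and the poly(A)-binding protein gene Pabpc1 at -0.57, and the median of the list was -0.14.

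Mitochondrially encoded and nuclear genes of the respiratory chain moved in opposite directions. All 9 mitochondrially encoded genes that could be tested, of 15 listed, fell, with a median of -4.74. Their summed level was 248 to 674 CPM with pS6 and 6690 to 12400 CPM in Input. The ribosomal RNA mt-Rnr2 went from a median of 2600 CPM (1750 to 3910) to 74.6 (47.3 to 109), a log2 fold change of -5.13 ± 0.04 (adjusted p = 3.99e-43). The smallest drop was that of mt-Nd6, at -3.60. Mitochondrial messenger RNAs are read by ribosomes inside the organelle, which hold no S6, and mt-Rnr1 and mt-Rnr2 are RNA parts of those ribosomes. Nuclear genes of the same respiratory complexes, translated on cytosolic ribosomes, went the other way. Of 48, 11 were higher and none lower (11.4% and 9.35% of all genes), with a median of 0.48. Atp5e, a subunit of the ATP synthase, stood at 271 to 419 CPM against 69.2 to 134 and was at 1.72, Cox7c of cytochrome oxidase at 1.42 and Uqcrq of the bc1 complex at 1.37. The larger subunit Sdha was at -0.37. The 11 were small proteins, and the list's median coding length was 477 bases. In the decile of coding genes with the shortest coding sequences, 20 to 513 bases, 20.7% were higher and the median was 0.52. The part of length in the list's values was not tested.

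Coding length accompanied the enrichment across the whole transcriptome. In the decile of coding genes with the shortest coding sequences (1439 genes, 20 to 513 bases) the median log2 fold change was 0.52, and 20.7% were higher and 3.27% lower. In the decile with the longest (1439 genes, 3513 to 105639 bases) it was -0.58, with 2.36% higher and 22.5% lower. Both medians had the same sign in every mouse, from 0.34 to 0.65 and from -0.75 to -0.38. Across 14382 coding genes Spearman's rho was -0.40 with coding length and -0.39 with the length of the whole transcript. With 3′UTR length it was -0.24, with 5′UTR length 0.12 and with GC content 0.14. Coding length and transcript length were not tested apart. Genes are not independent replicates, and all share the same libraries. The called groups differed accordingly: median coding length was 789 bases in 951 higher genes, 1383 in 12027 genes not called and 2016 in 1404 lower genes. In the membrane fraction the same deciles stood at 0.47 and -0.30, and in the cytosolic Camk2a capture, which shares the Input libraries, at -0.19 and 0.05. The part of length in any single gene's value was not tested.

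**Figure D3:**
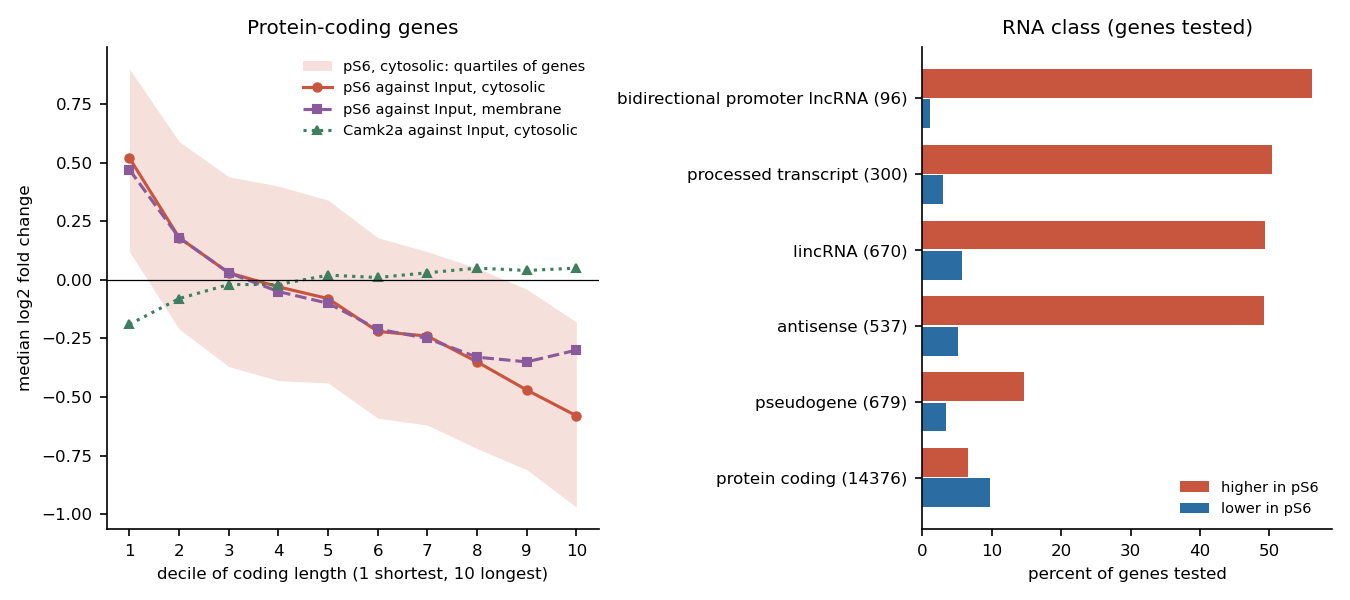
Left, median log2 fold change by decile of coding length for pS6 in both fractions and for Camk2a in the cytosolic fraction, each against Input, with a band from the first to the third quartile. Right, the percentage of tested genes called higher or lower with pS6 in each RNA class. Medians for cytosolic pS6 run from 0.52 in the shortest decile to -0.58 in the longest, and about equal shares, 49.3% of lincRNA and 49.2% of antisense genes, were higher.

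Noncoding RNAs were higher far more often than coding ones. Of 670 long intergenic noncoding RNAs (lincRNAs) 330 were higher and 38 lower (49.3% higher), of 537 antisense RNAs 264 were higher (49.2%), of 300 processed transcripts 151 (50.3%) and of 96 RNAs from bidirectional promoters 54 (56.2%). The share was 6.62% among 14376 protein-coding genes. Restriction to an average log2 CPM of at least 3 left 33 of 68 lincRNAs and 17 of 34 antisense RNAs higher, and restriction to lincRNAs whose exons overlap no other gene left 249 of 509. In the Camk2a capture against the same Input libraries 3 of 513 lincRNAs were higher (0.585%) and 150 lower. Few genes of any class were higher there, 0.359% of all genes tested, and 16.6% were lower. Among 23 listed long noncoding RNAs 6 were higher, including the small nucleolar RNA hosts Snhg5 and Snhg1 at 1.64 and 1.59 and the imprinted Peg13 at 1.36, whose pS6 libraries held 723 to 969 CPM against 192 to 384. The 3 lower ones included the imprinted RNAs Rian at -1.47 and Snhg14 at -1.60. The nuclear RNAs Malat1 and Neat1 were at -0.31 and -0.73.

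Of 12 listed small structured RNAs that are not messenger RNAs, 3 could be tested, and all 3 were scarce in the capture. Other small RNA classes did not share that fall. Of 5 small nucleolar RNAs 1 was higher and 0 lower, and of 12 microRNAs 2 were higher and 1 lower. Of 3 small nuclear RNAs 1 was higher and 1 lower. Bc1, a neuronal RNA that represses translation, had 61 counts in all 30 pS6 libraries together, 7 of which had none, against 9944 in the 30 Input libraries. Its log2 fold change of -7.38 ± 0.11 was the largest drop among named genes. Rn7sk, a nuclear regulator of transcription elongation, had 43 counts against 1630, and Scarna2, a guide RNA of Cajal bodies, 33 against 397. The labelled cDNA kit primes on poly(A) tails, so these counts do not measure the amounts of such RNAs in the tissue.

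Neuronal markers set the capture apart from Input only modestly. Of 15 pan-neuronal genes 1 was higher, the splicing factor Rbfox3 (NeuN), at 910 to 1180 CPM against 408 to 552 and 1.09 on the log2 scale. The list's median was 0.17, and Map2 lay at -0.98. Of 18 genes of excitatory neurons none passed the fold in edgeR or DESeq2 (20.7% of all genes did so in edgeR, in either direction), while 7 passed upward and 8 downward without it. Camk2a, the kinase whose promoter defines the other capture of the series, had medians of 1800 CPM with pS6 and 1820 in Input and was higher in 14 of 30 mice. Its value, -0.01 ± 0.04, changed sign in 9 of the alternatives, and lay between -0.17 and 0.16 in all of them.

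The lists of hippocampal subfields differed in their medians. Dentate granule neuron genes were the low list, with 4 of 14 lower (9.35% of all genes were), none higher and a median of -0.68. The medians were 0.10 for CA1 genes and 0.31 for CA3 and CA2 genes. In those 2 lists the count of higher genes was near the share of all genes (11.4%). RLE scaling, or even-numbered mice alone, left 2 of the dentate granule genes called, and library totals 5. Plk5, a polo-like kinase of granule cells, had a median of 15.6 CPM with pS6 (highest 22.2) and 37.3 in Input (lowest 29.8), without overlap, and was at -1.26. The guanine nucleotide exchange factor Dock10 was at -1.27. Of 10 CA1 genes 1 was higher, Lefty1, a TGF-beta family antagonist, at 1.57 (48.5 to 103 CPM against 17.4 to 30.1), whereas Wfs1, the usual CA1 marker, was at -0.70. Of 14 CA3 and CA2 genes 2 were higher, Bok of the Bcl-2 family at 1.40 and the calmodulin regulator Pcp4 at 1.08, and Pcp4 was at 0.83 in mice 1 to 11.

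Markers of parvalbumin interneurons, the fast-spiking basket cells, rose in part. Of 12 markers 6 were higher and none lower (11.4% and 9.35% of all genes), with a median of 0.98. The mean over the list was between 0.74 and 1.30 in every mouse. With library totals, and in even-numbered mice alone, 5 were higher. Pvalb, the calcium buffer that names the class, on chromosome 15 (78191114 to 78206400), stood at 162 to 266 CPM (median 198) with pS6. In Input it stood at 43.0 to 71.4 CPM (median 50.4). The ranges were far apart, and the log2 fold change was 1.95 ± 0.03 (adjusted p = 6.26e-35). Kcnc1, the fast potassium channel Kv3.1, was at 1.99 ± 0.02, the parathyroid hormone-like gene Pthlh at 2.14, the cytochrome oxidase subunit Cox6a2 at 1.56, Vwc2 at 1.19 and the channel subunit Kcns3 at 1.05 (0.98 with library totals). Cox6a2 and Pvalb have short coding sequences, and the part of that in their values was not tested.

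Other interneuron markers did not share that rise. Of 16 pan-inhibitory genes none passed the fold, with 8 upward and 7 downward without it. Gad1, the main GABA-synthesizing enzyme, was level, at 204 to 349 CPM against 227 to 313 (0.13 ± 0.02), while its relative Gad2 was at -0.60. Sst was at 124 to 330 CPM against 142 to 270 and at 0.03 ± 0.05, higher in 12 of 30 mice. It was at -0.35 in NoCFC Sleep mice, and its enrichment was larger by 0.66 in SD mice. The extracellular matrix protein Reln, of neurogliaform and Sst cells, was lower at -1.10 (-0.83 in mice 1 to 11), as were Vip at -1.28 and Ndnf at -1.45. Crh and Penk, peptide genes of overlapping classes, rose, Crh at 1.60 (1.82 to 8.64 CPM against 0.521 to 2.7) and Penk at 1.09. Over the 28 listed neuropeptides and secreted factors 4 were higher and 3 lower, near the shares of all genes (11.4% and 9.35%). A larger enrichment in SD mice was found for 11 of them, against 1.44% of all genes.

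Synaptic and channel genes divided within families. In the postsynaptic scaffold list 5 of 24 were higher and 2 lower (11.4% and 9.35% of all genes). The lower share was near that of all genes. Agap2, a GTPase-activating protein also known as PIKE, was at 126 to 225 CPM against 12.9 to 51.2 and at 2.04 ± 0.07. Dlg4 (PSD-95) and its binding protein Dlgap3 were both at 1.25 and Shank1 at 1.12, whereas the relatives Dlg1 and Dlg3 of PSD-95 were at -1.10 and -1.07, and at -0.98 and -0.97 in CFC SD mice alone. Mouse 6, whose Input library stood apart, had the highest ratio of its group for Agap2 (3.65), Dlg4 (2.35), Dlgap3 (2.65) and Shank1 (2.21). Each of these kept its call without mice 6 and 19. Among 35 adhesion genes 4 were higher and 1 lower, and the higher share was that of all genes (11.4%). The highest value was that of Nlgn2, the neuroligin of inhibitory synapses, at 61.7 to 106 CPM against 13.4 to 30.6 and 1.91, with Ncam2 at -1.19. Nrxn2, at 1.04, fell to 0.96 with library totals and to 0.97 in mice 23 to 30.

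Ion channels and receptors gave few calls apart from potassium channels. Of 30 potassium channel genes 6 were higher and none lower (11.4% and 9.35% of all genes), with a median of 0.44. With library totals 4 were higher, as were 1684 of all 17112 genes. The 6 included Kcna1 (Kv1.1), at 423 to 595 CPM against 136 to 183 and 1.66, and the G-protein-gated Kcnj3 at 1.17. Of 24 glutamate receptor genes the kainate receptor subunit Grik5 was higher, at 298 to 510 CPM against 72.6 to 136 and 1.79, and 2 were lower. The subunit Grin2c was at -1.06, and at -0.62 in NoCFC SD and -0.82 in CFC SD mice. None of 14 GABA receptor genes passed the fold in edgeR or DESeq2, and without it 4 passed upward and 7 downward.

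Motor and cytoskeletal scaffold genes had a median below that of all genes (-0.05). Of 39, 6 were lower (9.35% of all genes were), and Nav1 alone was higher. The median was -0.58, and the list's median coding length was 4872 bases. Myo6, a minus-end-directed myosin, was at -1.64, the spectrin Sptan1 at -1.63 and the kinesin Kif5a at -1.27. Of 44 chromatin modifiers (median coding length 5376 bases) 4 were lower, a share near that of all genes, and 1 higher, with a list median of -0.37, Ep400 at -1.20 and Setd1a at 1.02, the latter lost with library totals (0.94). Of 33 vesicle and active zone genes the 1 call was the very long scaffold gene Pclo, at -1.16. Proteasome subunits (31 genes) and ER chaperones (20 genes) gave no call in edgeR or DESeq2, with medians of -0.20 and -0.30, and without the fold 8 and 4 passed upward and 21 and 16 downward.

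Of 18 genes of the integrated stress response 1 was higher and 3 were lower, against 11.4% and 9.35% of all genes, and 14 were not called. The central factor Atf4 was higher, at 161 to 263 CPM against 60.6 to 109 (1.40). Its targets in amino acid supply Slc7a11, Phgdh and Psat1 were lower at -1.90, -1.60 and -1.31. Astrocytes express those 3 strongly, and astrocyte markers fell beside them. That share in the values was not tested.

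**Figure D4:**
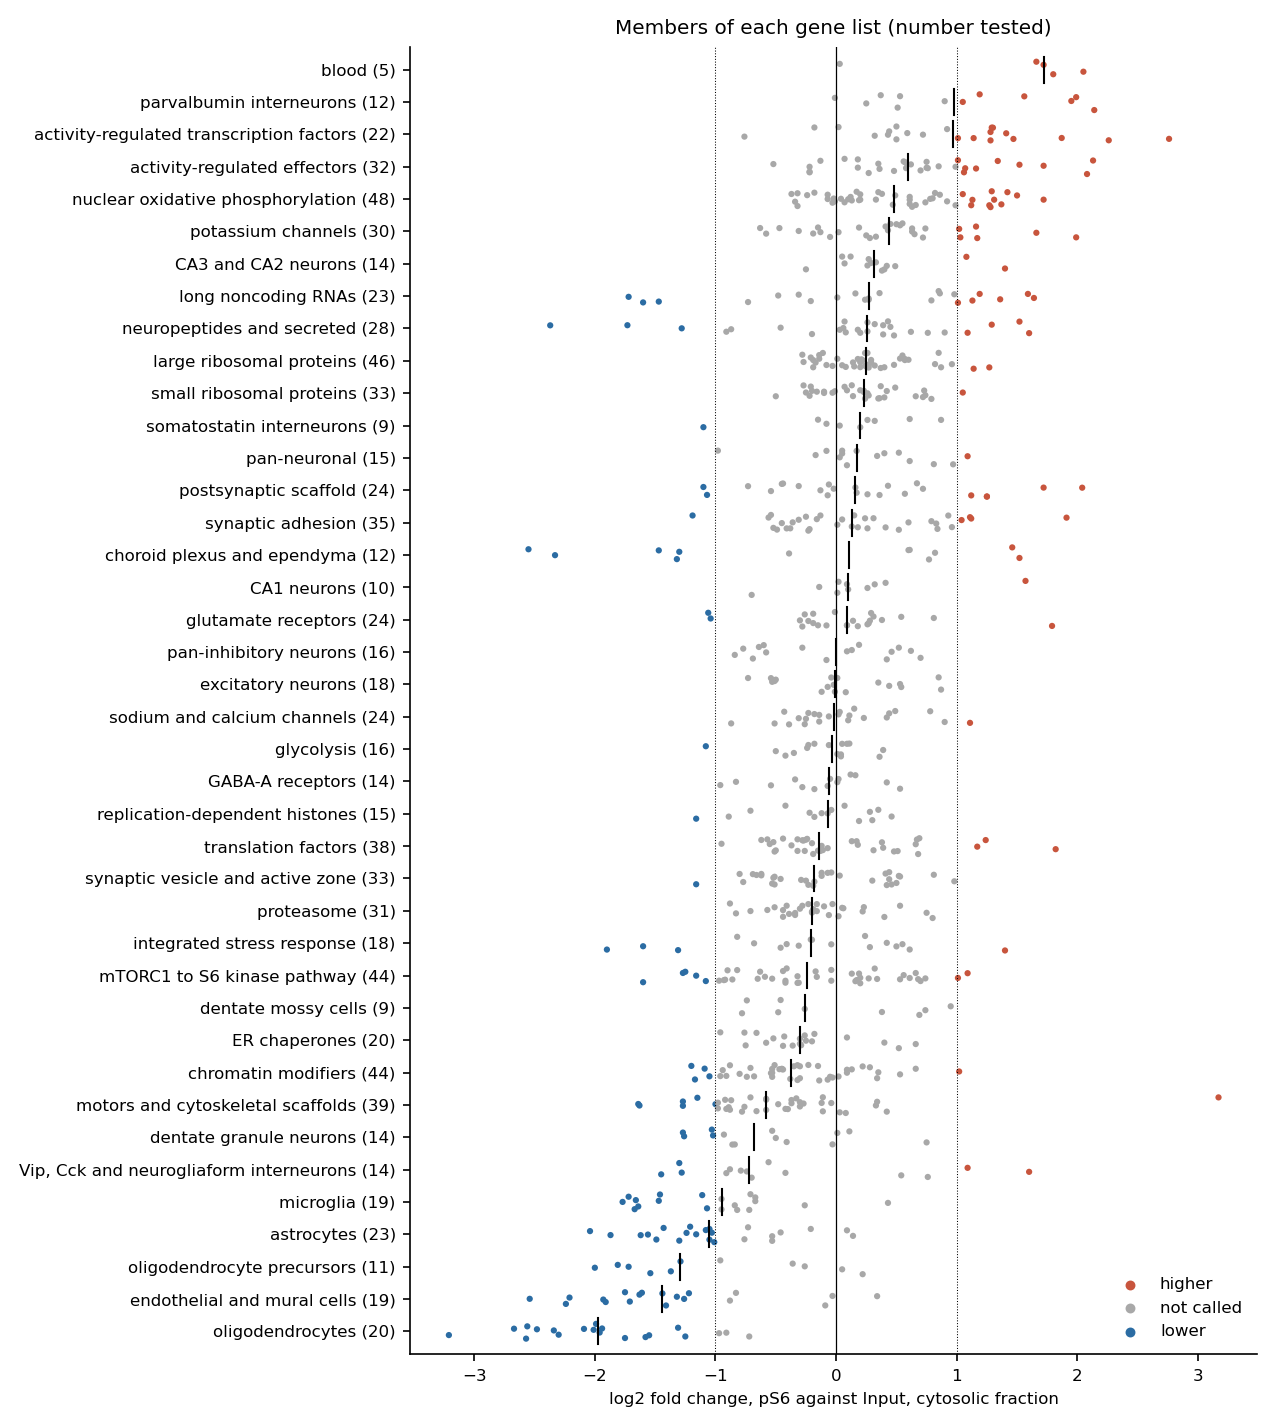
Log2 fold change of pS6 against Input for every tested member of each gene list other than the mitochondrially encoded genes and the small structured RNAs, ordered by list median (black tick), with higher genes in red, lower genes in blue and genes not called in grey, and dotted lines at a fold of 2. Oligodendrocyte genes have the lowest median, -1.97, and blood genes the highest, 1.72.

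Many glial and vascular markers were lower with pS6, while 9.35% of all genes were. Of 20 oligodendrocyte genes 17 were lower (median -1.97), with the summed level at 1200 to 3010 CPM against 3990 to 5630. Ermn, a cytoskeletal protein of myelinating cells, fell from a median of 93.1 CPM (72.3 to 121) to 10.1 (6.18 to 17.5), a log2 fold change of -3.21 ± 0.05. Gjb1, a gap junction protein, was at -2.67 and Mbp at -1.55, and Mbp still held 302 to 483 CPM with pS6. Exons of Ermn overlap another gene. Of 11 genes of oligodendrocyte precursors 6 were lower, among them Pdgfra, the growth factor receptor that marks these cells.

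Astrocyte markers were lower with pS6 and varied widely between mice. Of 23 tested 15 were lower and none higher (9.35% and 11.4% of all genes), with a median of -1.05. In odd-numbered mice alone 11 were lower, with RLE scaling 13 and without the mouse block 13. The list's mean was above 0 in mice 19 (0.32) and 12 (0.08) and reached -1.64 in the lowest mouse. Gfap, the intermediate filament of astrocytes, was at 38.1 to 130 CPM against 174 to 292 and at -1.87 ± 0.07. Aqp4, the water channel of their endfeet, was at -2.04 ± 0.10 with ranges that overlapped (6.0 to 31.8 against 27.2 to 71.6). S100b was level at 0.14.

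Of 19 microglial genes 9 were lower, against 9.35% of all genes. P2ry12 was at -1.66 and Csf1r at -1.64, for example, while the lysosomal gene Cd68 was at 0.43. The summed level of the 19 microglial genes was 79.3 to 146 CPM against 195 to 304. Of 19 endothelial and mural genes 14 were lower, with the smooth muscle actin Acta2 at -2.54, Ly6c1 at -1.91 and the tight junction gene Cldn5 at -1.71. In these 5 glial and vascular lists no tested marker had a median of 0 over the pS6 libraries, and 6 of the 19 endothelial and mural genes were at 0 in at least 1 pS6 library.

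Globin genes rose with pS6, and genes of the choroid plexus and ependyma divided. Of 5 blood genes 4, all globins, were higher (11.4% of all genes were), and the list's median was 1.72. The summed level of the list was 65.4 to 352 CPM against 23.2 to 81.0. Hbb-bt was at 3.04 to 13.2 CPM against 0.5 to 2.31, without overlap, and at 2.05, and Hba-a1 at 1.72. In the list of 12 choroid plexus and ependymal genes 2 were higher and 5 lower (11.4% and 9.35% of all genes). The list's mean was below 0 in 23 of 30 mice. The choroid genes Ttr (1.46 ± 0.09) and Folr1 (1.52) were up, and the ciliary genes of ependyma Tmem212 (-2.55) and Foxj1 (-1.47) were down. Ttr ran from 3.09 to 2200 CPM with pS6 and from 2.05 to 627 in Input, a spread between mice far beyond its fold change.

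The membrane fraction of the same mice, the resuspended pellet, gave a test in separate libraries. In it 1169 genes were higher with pS6 (6.84%) and 812 lower (4.75%) of 17101. Of the 3198 genes called in the cytosolic fraction and tested in both, 3165 had the same sign, 1378 were called the same way and 2 the opposite way. Fosb was at 2.63 there and Fos at 1.18, and 7 of the 22 transcription factors were higher. Mtor was at -0.79. The parvalbumin list had 5 of 12 higher, with Pvalb at 2.22. The astrocyte list had a median of -0.62 with 2 lower there, and -1.05 with 15 lower in the cytosolic fraction, and the difference between fractions passed its own test, given next, for 2 of the 23.

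The difference of the 2 enrichments was tested as an interaction of capture with fraction. It passed for 157 genes with a larger cytosolic value (0.864%) and 577 with a lower one (3.17%), or 4.04% of 18174. Among the listed genes 32 were lower and none was higher. Rn7sk had the lowest value of these, -3.73. Next were mitochondrial transcripts, with mt-Rnr1 at -2.37, mt-Rnr2 at -2.29 and mt-Nd1 and mt-Co1 at -1.97, and 12 of 12 fell in the membrane fraction as well, with a median of -2.86. Oligodendrocyte genes among them were Ermn at -1.47 and Gjb1 at -1.46, and Snhg14 was at -1.36, Slc7a11 at -1.30 and Phgdh at -1.15. The 4 largest cytosolic values by the same rule on level and names were those of the transporter Abcc4 at 1.23, Chadl at 1.15, the integrin adaptor talin 1 (Tln1) at 1.09 and Plpp5 at 1.06. None of the 22 activity-regulated transcription factors was called in this test, which also asks a fold of 2. The median difference over that list was 0.18, so smaller differences are not excluded.

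**Figure D5:**
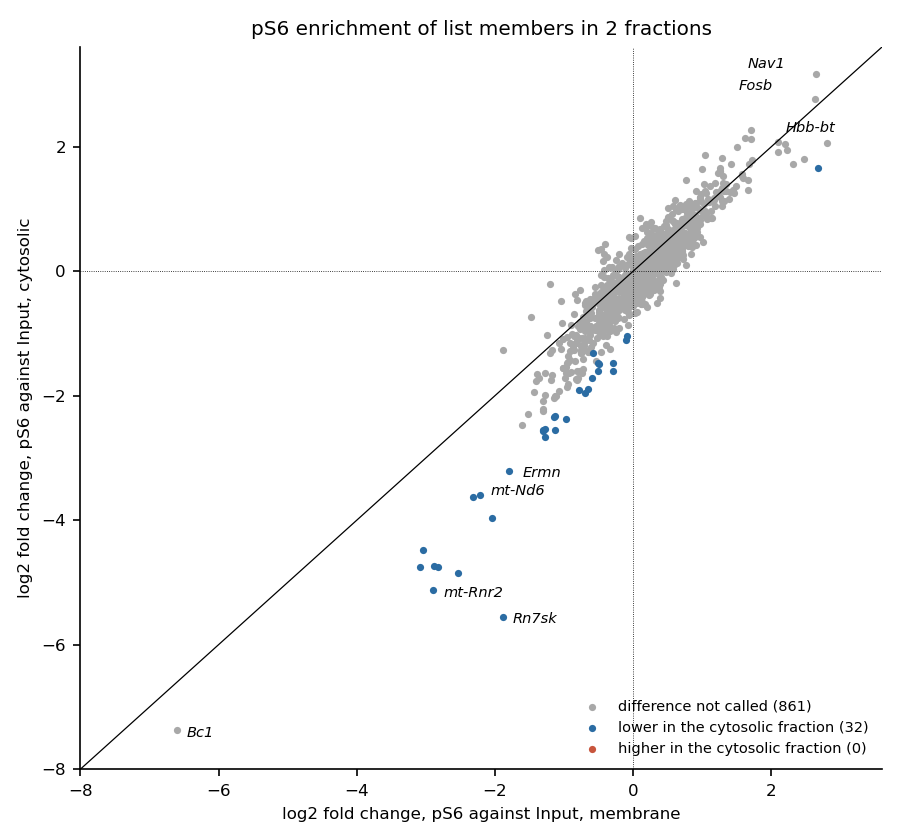
Log2 fold change of pS6 against Input in the membrane fraction (horizontal axis) and in the cytosolic fraction (vertical axis) for 893 list members tested in both, with the 32 genes whose cytosolic value was lower by the interaction test marked. Bc1, Rn7sk and the mitochondrial genes lie lowest on the vertical axis, and most other genes lie along the diagonal.

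The Camk2a capture of the same fraction shares the Input libraries, so its values are given beside those of pS6 and no overlap is drawn from them. Against Input 59 genes were higher with Camk2a (0.359%) and 2728 lower (16.6%), of 16421. Pvalb was at -4.26 with Camk2a and 1.95 with pS6, Gad1 at -1.45 and 0.13, Camk2a itself at 0.75 and -0.01 and Plk5 at 1.26 and -1.26. Of the 22 activity-regulated transcription factors 2 were lower with Camk2a and none higher (median 0.35), against 11 higher with pS6. Oligodendrocyte genes had a median of -3.70 with Camk2a and -1.97 with pS6, and blood genes -3.93 and 1.72. Compared directly, in the same mice and without Input, 3722 genes were higher with pS6 (22.2%) and 1425 lower (8.52%), of 16730, and with library totals 4377 and 754. Adamtsl5, a secreted protein related to the ADAMTS proteases, was 4.84 higher on the log2 scale with pS6 than with Camk2a. The adaptor Bcar1, the golgin Trip11 and the actin nucleator Cobl were at -2.63, -2.36 and -2.20 in that comparison.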

How the data were processed

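Hippocampal RNA was sequenced in 180 libraries, and 60 of them, 30 of the pS6 capture and 30 of Input from the cytosolic fraction, carry the comparison. The authors deposited raw counts, whole numbers of reads per gene and library, in 1 table of 54429 gene symbols. Per the submitters' processing notes the tools were STAR 2.6.1a, featureCounts (no version) and MultiQC 1.6a0 on GRCm38.p6, and settings and strand are not given in the sources used here. The labels' protocols name SMART-seq v4 for the cDNA libraries. Every column of the table was matched to a sample by its name (0 unmatched).

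Counts were analysed with edgeR 4.0.16 (limma 3.58.1, statmod 1.5.0, R 4.3.3): filterByExpr, TMM scaling, a model of library type with a term for each mouse and interactions of library type with sleep and training, robust quasi-likelihood dispersion with its F-test, and Benjamini-Hochberg adjustment over all genes tested. Effects average over the 4 groups. A gene is called at an adjusted p under 0.05 and a fold of 2, and an interaction with sleep or training at the adjusted p alone. CPM values use TMM library sizes, and log2 ratios per mouse a prior count of 2. The adjusted p values measure the spread between 30 mice. Depth ranged from 13.4 to 25.4 M (mega-counts) per library, which limits genes of low count, and without molecular identifiers reads can be copies of 1 molecule.

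Same-numbered libraries come from 1 mouse, since each fraction was divided into Input and captures per the labels' protocols. After removal of group means, their deviations correlated with a median of 0.414 and a lowest value of 0.114, against -0.0124 for different numbers, and 22 of 30 pS6 libraries were closest to the Input library of their own number. No library was a copy of another (lowest chi-square per degree of freedom 3.01).

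The members of the comparison and the 42 gene lists were chosen with earlier results of these data known. Named genes are list members, the 12 genes with the largest change each way and, in the other comparisons, the 4 each way, with an average log2 CPM not under 3 and passing over predicted genes. Alternatives were no mouse block, RLE scaling, library totals, no filter and a stricter one (1 CPM in 30 libraries), DESeq2 1.42.0, glmTreat, no fold, mitochondrial genes and Bc1 left out, equal weight per mouse, single runs or groups of mice and a run term. Chosen after seeing the data were the fits without mice 6 and 19 and in odd or even mouse numbers. Positions are from GENCODE vM21, where 53775 symbols were found. The steps were tested on simulated data, and the tables and plots were made with Python 3.11.15, numpy 2.4.6, pandas 2.3.3 and matplotlib 3.10.9.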

Additional observations from a re-analysis of the deposited data

Results flagged for a closer look

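For the named genes the log2 ratio of pS6 to Input was compared between the mice of each group, and a mouse was set apart where its gap to the nearest other mouse was large for the range of its group (Dixon's criterion, which chance meets in about 1 in 20 groups). Of 620 sets of a gene in a group, 52 held such a mouse (8.39%), and 15 of these values were those of mouse 6, 8 of mouse 19, 6 of mouse 14 and 7 of mouse 27.

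Mouse 6, of the NoCFC Sleep group, was highest for Agap2 (3.65), Fosb (3.29), Dlgap3 (2.65), Grik5 (2.48), Dlg4 (2.35), Tbata (2.34), Shank1 (2.21), Peg13 (2.01), Nrxn2 (1.84), Fosl2 (1.79), Camk2a (0.91), Egr3 (0.61), Pabpc1 (0.05) and Tmem212 (-0.08), and lowest for Rps6kb1 (-0.45). Mouse 14, of the CFC Sleep group, was highest for an overlapping set, Fosb (3.34), Agap2 (2.88), Grik5 (2.25), Dlgap3 (1.98), Dlg4 (1.71) and Camk2a (0.55). In mouse 19, of the CFC SD group, astrocyte genes were the highest of the group, with Gfap at -0.81, Aqp4 at -0.33, and Slc7a11 at -0.33 and Phgdh at -0.30 beside them. Grin2c was highest there too (0.84), and Acta2 (-3.62), Egr1 (0.18) and Jund (0.36) were lowest. Mouse 27, of the NoCFC SD group, was lowest for mitochondrial RNAs, namely mt-Nd4 (-5.79), mt-Nd2 (-5.65), mt-Cytb (-5.59), mt-Rnr2 (-5.57), mt-Nd5 (-4.70) and mt-Co1 (-4.66), and highest for Plvap (3.05).

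Single values apart from their group were Aqp4 (-0.94) and Slc7a11 (-0.98) in mouse 12, Gjb1 (-3.23) and Deptor (-0.67) in mouse 23, Junb (0.70) and Kcns3 (1.72) in mouse 13, and Egr1 (0.03) and Nr4a3 (1.09) in mouse 7. The others were Eif2s3x in mouse 5 (-1.43), Ly6c1 in mouse 11 (-2.78), Brd3os in mouse 15 (2.07), Ep400 in mouse 16 (-0.87), Pabpc1 in mouse 21 (-0.78), Malat1 in mouse 24 (-0.29), Psat1 in mouse 28 (-1.67) and Kcna1 in mouse 29 (1.51).

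Differences of the enrichment between SD and Sleep mice, tested as an interaction in edgeR, passed for 35 of the named genes. Among transcription factors they were Npas4 (1.16), Fos (0.78), Egr2 (0.76), Fosb (0.61), Nr4a1 (0.57), Nr4a2 (0.53), Junb (0.51), Egr1 (0.45), Crem (0.45), Fosl2 (0.42), Egr4 (0.39) and Nr4a3 (0.38). Among effectors and peptides they were Crh (1.00), Pcsk1 (0.80), Inhba (0.74), Bdnf (0.68), Sst (0.66), Nptx2 (0.63), Penk (0.34), Tiparp (0.31) and Homer1 (0.22). The other positive ones were Alkal2 (0.84), Cplx3 (0.84), Cd68 (0.40), Gad2 (0.37), Pcp4l1 (0.27), Gad1 (0.25), Mir22hg (0.23), Atf4 (0.21) and Kcnc1 (0.16). A smaller enrichment in SD mice was found for Inhbb (-0.53), Dio3 (-0.47), Lefty1 (-0.45), mt-Nd6 (-0.43) and Wfs1 (-0.21). Between CFC and NoCFC mice Malat1 (-0.76) and Egr3 (0.25) differed, and training and the run of mouse numbers cannot be told apart in mice 1 to 22.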

How the results depend on the processing

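The count of genes higher with pS6 stayed within 1.5 times its value under scaling, block, filter, tool and mouse alternatives, and changed with the fold: 7067 genes were higher and 7867 lower with no fold required. The count of lower genes was 2678 with no low-count filter, 992 with the stricter filter and 1050 with glmTreat. For the difference between fractions no filter gave 355 higher, and the stricter filter 74 higher and 187 lower. Against Camk2a, library totals gave 754 lower, no filter 5677 higher and the stricter filter 2341 higher and 926 lower.

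The replicate block, here the mouse, hardly moved the main comparison (1946 higher and 1513 lower without it), but without it the SD change passed for 87 and 28 genes and the CFC change for 0 and 0. The SD change gave 394 higher with no filter, 26 and 6 in mice 1 to 11, 32 and 9 in mice 12 to 22, 108 and 17 in mice 23 to 30, 69 and 25 in odd-numbered and 71 and 22 in even-numbered mice. The CFC change gave 0 and 1 with RLE scaling, 1 lower with library totals, 30 and 20 with no filter, 2 and 1 with DESeq2 and without mice 6 and 19, and 0 and 0 with the run term and in odd-numbered or even-numbered mice. Where edgeR gave 0, an unadjusted p under 0.05 was found in 745 genes without the block (4.35% of those tested) and 462 with the run term (2.7%). In odd-numbered mice it was found in 1269 genes (7.44%) and in even-numbered mice in 610 (3.5%). With no effect at all a share of about 0.05 would be reached, and only the odd-numbered mice were above it. The causes were not tested.

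Of 3445 values of single-gene results under alternatives, 3212 kept direction and side of the threshold, 193 no longer passed, 17 newly passed and 23 changed sign. All sign changes belonged to genes near 0. Camk2a was at 0.03 with RLE and with DESeq2, 0.05 with the stricter filter, in NoCFC SD and in even-numbered mice, 0.00 with equal weights, 0.16 in mice 1 to 11 and in NoCFC Sleep and 0.10 in CFC Sleep mice. Sst was at -0.04 with library totals, -0.15 in mice 1 to 11, -0.35 in NoCFC Sleep and -0.18 in CFC Sleep mice. Fosl1 was at -0.05 with library totals, -0.07 in mice 1 to 11, -0.13 in NoCFC SD and 0.00 in odd-numbered mice. Malat1 was at 0.20 in mice 1 to 11 and 0.28 in NoCFC Sleep mice, S100b at -0.01 and -0.04 in the same sets, Gad1 at -0.06 in NoCFC Sleep and Btg2 at 0.08 in CFC SD mice. Beside the cases named above, Crem, Dio3, Foxj1, Nav2, Pclo, Pdk1, Penk and Cplx3 fell short of the fold in single groups or runs of mice. Depth limits genes of few counts, which the filters add or remove.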
